A study of Mus musculus with 4 samples.

Results

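The synaptonemal complex and meiotic cohesin genes examined here are Sycp1, Sycp2, Sycp3, Syce1, Syce2, Tex12, Hormad1, Rec8, Smc1b and Stag3. They were listed by name, and every probe set that the annotation of the Affymetrix Mouse Gene 1.1 ST array pairs with one of these symbols was taken. All 10 genes were found, with 11 probe sets, among 18820 genes with a value of their own and 35556 probe sets in all. Hormad1 had 2 probe sets and the other genes had 1 each, and the probe set with the highest mean gave the gene its value. RNA came from whole testes of adult male mice, 3 to 4 months old, of a C57BL/6 mixed background. The KO group carried a β-Geo cassette in both copies of Azin2, between exons 4 and 5, from which a truncated AZIN2 fused to β-galactosidase is made, and the WT group carried the intact gene. No mouse received a treatment. Each group had 2 arrays. The RNA on an array was pooled from 3 mice, so that the spread between arrays is one between pools. The relation of the WT mice to the KO mice (littermates or not) is not given in the sources used here.

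The synaptonemal complex is a protein ladder that joins homologous chromosomes along their length in spermatocytes, during the prophase of the first meiotic division. The sides of the ladder are chromosome axes, built on cohesin rings and coated with SYCP2 and SYCP3, and the rungs are filaments of SYCP1. The rungs meet in a central element that holds SYCE1, SYCE2 and TEX12. HORMAD1 marks axes that have not yet been joined. Cohesin rings of meiosis hold subunits of their own, REC8, SMC1-beta (Smc1b) and STAG3, in place of the kleisin, SMC1 and STAG subunits of other cells. In male mice, loss of any single one of these genes arrests meiosis and causes sterility. The comparison of KO with WT testes asks what the loss of Azin2 changes in testis gene expression.

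The arrays were alike in scale, with medians between 6.08 and 6.11 (log2 signal). The mean of 8 spermatid markers lay between 11.77 and 11.79 on the 4 arrays, and that of 3 epididymis markers between 5.46 and 5.51. Of these 3, Lcn5 and Lcn8 lay below the median of every array, and Rnase10, at 6.56 to 6.70, lay above it. Azin2 was at 7.36 and 7.14 in the KO pools and at 10.16 and 9.998 in the WT pools, a difference of -2.83 (SE 0.10, adjusted p = 0.0250 from limma). Of 23099 named probe sets tested, Azin2 was the only 1 with an adjusted p under 0.05 (0.00433%). In whole testis, fewer cells of a type and less RNA per cell cannot be told apart.

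The promoters of the 10 genes had a feature that the choice of the genes did not use. The letters CACGTG, a palindromic E-box read the same on both strands, were found within 250 bases before to 50 bases after the transcription start of 6 of the 10 genes, Sycp1, Sycp3, Syce2, Stag3, Hormad1 and Tex12. Of the 27025 genes with a promoter in RefSeq (GRCm38.p6), 8.09% held these letters. Of those whose promoters hold at least 10 CG dinucleotides, the lowest number in any promoter of the 10 genes, 11.8% did. The median number was 22.5 in the 12 promoters of the 10 genes and 7 in all promoters. The letters hold a CG themselves, and the share among promoters as rich in CG as this median was not taken. MAX and its partner MGA bind this E-box, and with E2F6, PCGF6 and L3MBTL2 they form a complex that keeps meiotic genes silent outside the germ line. The windows below are shown because the letters recur in genes of the ladder's rungs, axis and central element alike. Each window is 30 bases on the gene's own strand, 5′ to 3′, with the E-box in capitals.
Sycp1, 94 bases before the start, chr3:102936177-102936206, minus strand: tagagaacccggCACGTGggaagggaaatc
Sycp3, 64 bases before the start, chr10:88459511-88459540, plus strand: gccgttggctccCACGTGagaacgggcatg
Sycp3, 43 bases before the start, chr10:88459532-88459561, plus strand: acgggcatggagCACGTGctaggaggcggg
Syce2, 88 bases before the second of its starts, chr8:84872158-84872187, plus strand: cgtttcattcagCACGTGctcggggcgggg
Tex12, 93 bases before the start, chr9:50561344-50561373, minus strand: ccgcgagactgtCACGTGgctcgcgcgctg
Hormad1, 57 bases before the start, chr3:95559608-95559637, plus strand: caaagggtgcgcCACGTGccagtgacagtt
Hormad1, 20 bases before the start, chr3:95559645-95559674, plus strand: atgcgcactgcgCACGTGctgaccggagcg
Stag3, 170 bases before a start that lies within the gene's span, chr5:138280327-138280356, plus strand: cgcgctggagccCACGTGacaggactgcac

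The letters TCCCGCC, a core that E2F6 binds, were found on either strand in 3 of the 10 genes, all of which also held the E-box, against 12.7% of all genes with a promoter. The share was 25.0% of those with promoters of at least 10 CG dinucleotides, so that 3 of 10 lay near it. All 3 genes carried the letters as their reverse complement, GGCGGGA, shown here in capitals.
Syce2, 35 bases before the second of its starts, chr8:84872212-84872241, plus strand: gagggcgctgaGGCGGGAaaagacggaatg
Hormad1, 96 bases before the start, chr3:95559570-95559599, plus strand: gcgcagcttttGGCGGGAatagtggtctgg
Tex12, 146 bases before the start, chr9:50561396-50561425, minus strand: gggaggaaaaaGGCGGGAagtaaagggaag
Syce2 held these letters a second time, 28 bases after that start. The letters CCTCAG, from the motif of STRA8 and MEIOSIN, which switch on meiotic genes at meiotic entry, were found on either strand in 6 of the 10 genes (Sycp1, Syce1, Syce2, Smc1b, Hormad1 and Tex12), against 29.4% of all genes with a promoter. In Syce2 they shared 2 bases with the E2F6 letters. Sycp2 and Rec8 held none of the 3 motifs in these windows. For both, as for Stag3, the start used lies within the gene's span, so that less sequence before the gene's outer end was read. A match of letters does not show that a protein binds there.

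**Figure D1:**
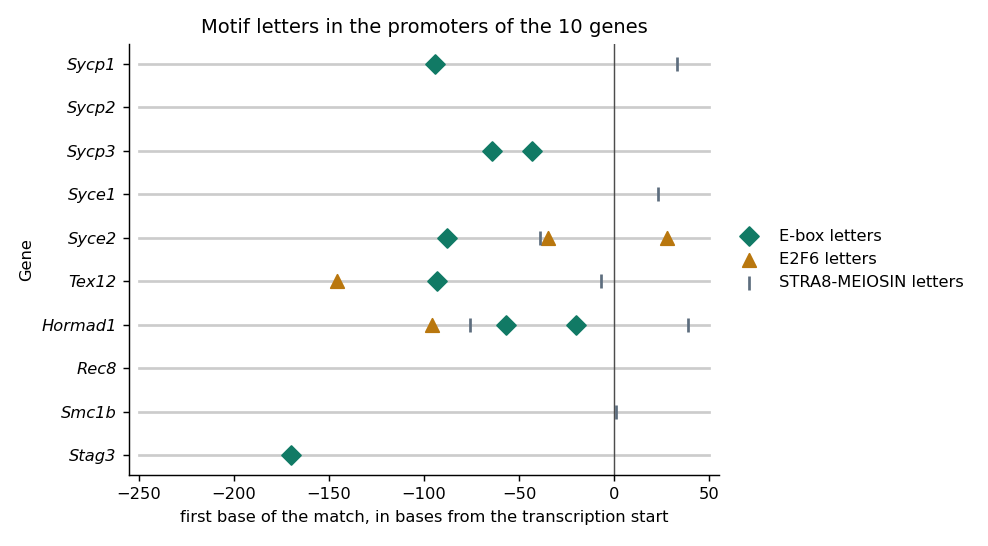
Position of the motif letters in the promoters of the 10 genes, with 1 line per gene. The horizontal axis gives the first base of each match in bases from the transcription start. Syce2 is drawn from the second of its starts, and Stag3, Sycp2 and Rec8 from a start within the gene's span. Green diamonds are E-box letters, brown triangles E2F6 letters and grey ticks STRA8-MEIOSIN letters; 6 of the 8 E-boxes lie between 43 and 94 bases before the start, and Sycp2 and Rec8 have no mark.

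None of the 10 genes passed the test between KO and WT testes. Of these 10, 0 passed an adjusted p of 0.05 and 0 an unadjusted p under 0.05 from limma, where 4.1% of the named probe sets passed the latter. When a fold of 1.5 was asked for as well, 0 of the 10 passed, against 0.0823% of the named probe sets. Unadjusted p-values from limma ranged from 0.209 for Syce2 to 0.964 for Smc1b, and the adjusted p was 0.9995 for each. The differences between KO and WT lay between -0.041 for Rec8 and 0.084 for Sycp3 on the log2 scale, with a median of 0.027, where the median over all genes was 0.011. Without regard to sign, the median difference was 0.038 for the 10 genes, 0.046 for all genes, and 0.040 for the 6603 genes with a mean level in the range of the 10. The 95% intervals of the 10 ran at most from 0.855 to 1.21 times the WT level, so that no interval reached a fold of 1.5 in either direction. These folds are on an array scale that includes background signal, which makes a change in mRNA look smaller, and each interval covers its own gene only. With 2 pools against 2, an exact permutation test of a single gene cannot go below p = 0.333, two-sided.

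**Figure D2:**
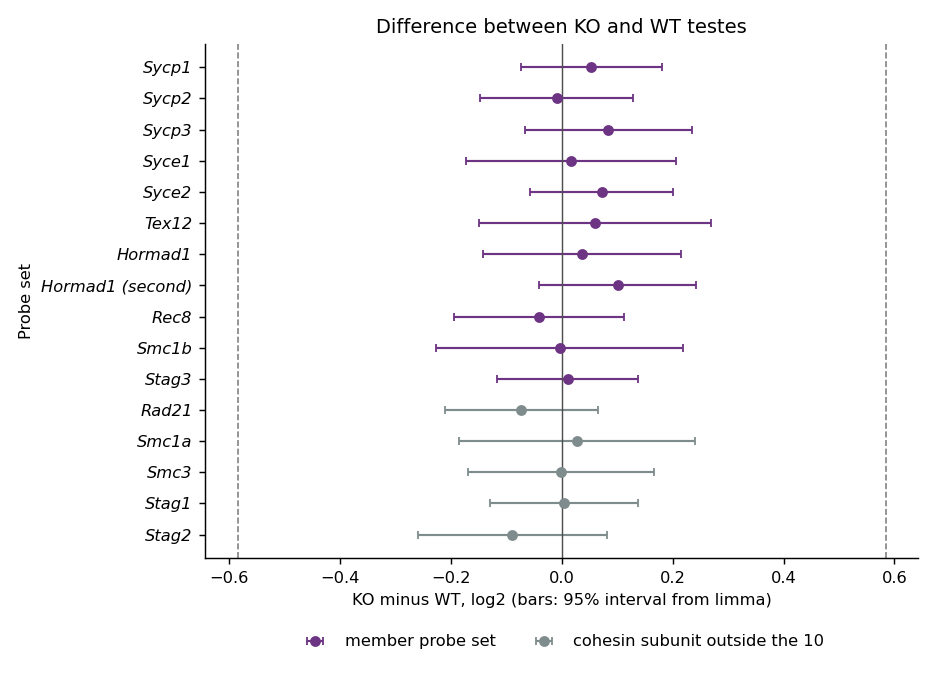
Difference between KO and WT testes in log2 units (horizontal axis) for the 11 probe sets of the 10 genes (purple) and for 5 other cohesin subunits (grey). Points are differences of means of 2 pools, bars are 95% intervals from limma, and dashed lines mark a fold of 1.5; every bar crosses 0 and none reaches a dashed line.

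Sycp1 encodes the protein of the rungs and lies on chromosome 3 (102818499 to 102936100, GRCm38.p6). Its log2 signal was 11.07 and 11.04 in the KO pools and 11.02 and 10.98 in the WT pools. Both KO pools lay above both WT pools, by little: the difference of 0.053 (SE 0.049, unadjusted p = 0.329 from limma) exceeded the larger gap between pools of one genotype, 0.036. The interval ran from 0.95 to 1.13 times the WT level.

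Among the central element genes, Syce2 (chromosome 8) also had its pools apart, at 11.72 and 11.67 in KO and 11.62 and 11.63 in WT testes. The difference was 0.072 (SE 0.050), with an interval from 0.962 to 1.15 times the WT level, and the larger gap within a genotype was 0.050. SYCE2 assembles with TEX12 into the fibres that carry the central element along the chromosomes. Tex12 (chromosome 9) was at 8.32 and 8.12 in KO and 8.19 and 8.13 in WT testes, so that KO pool 1 stood above the other 3 arrays and KO pool 2 was the lowest. Its difference of 0.060 (SE 0.081) was smaller than the gap of 0.198 between the KO pools. Syce1 (chromosome 7), whose protein links the rungs to the central element, was at 11.09 and 11.004 in KO and 10.95 and 11.11 in WT testes. The WT pools lay on both sides of the KO pools, and the difference was 0.017 (SE 0.074).

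Of the axis genes, Sycp3 had its pools apart and Sycp2 did not. Sycp3 (chromosome 10), whose protein is the common stain for chromosome axes, was at 11.50 and 11.41 in KO and 11.35 and 11.40 in WT testes. Both KO pools lay above both WT pools, and the difference of 0.084 (SE 0.058, unadjusted p = 0.212 from limma) was smaller than the gap of 0.097 between the KO pools. Sycp2 (chromosome 2), the partner on which SYCP3 is held at the axis, was at 10.83 and 10.79 in KO and 10.78 and 10.85 in WT testes. Its groups overlapped, with a difference of -0.0095 (SE 0.053).

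Hormad1 (chromosome 3), which monitors unjoined axes, gave different answers from its 2 probe sets. The brighter one was at 10.61 and 10.45 in KO and 10.50 and 10.49 in WT testes, with KO pool 2 below both WT pools and a difference of 0.036 (SE 0.069). The other was at 10.52 and 10.44 in KO and 10.39 and 10.37 in WT testes, with both KO pools above both WT pools and a difference of 0.10 (SE 0.055, unadjusted p = 0.127 from limma). The annotation pairs both with the same transcripts, and which of them follows Hormad1 mRNA more closely was not tested. KO pool 1 was the highest of the 4 arrays in both.

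The pools of the 3 meiotic cohesin genes overlapped, and Smc1b had the largest gap between pools of one genotype among the 10 genes. Rec8 (chromosome 14), the kleisin that closes the ring and is cut by separase at the meiotic divisions, was at 8.36 and 8.27 in KO and 8.32 and 8.39 in WT testes, a difference of -0.041 (SE 0.059). Stag3 (chromosome 5), which binds the kleisin, was at 11.24 and 11.21 in KO and 11.23 and 11.20 in WT testes, and its difference was 0.011 (SE 0.050). Its 4 arrays lay within a narrow band. Smc1b (chromosome 15), an ATPase arm of the ring, was at 10.29 and 10.51 in KO and 10.37 and 10.44 in WT testes. Here the KO pools were the lowest and the highest of the 4 arrays, 0.216 apart, while their mean was level with that of the WT pools (difference -0.0041, SE 0.086).

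**Figure D3:**
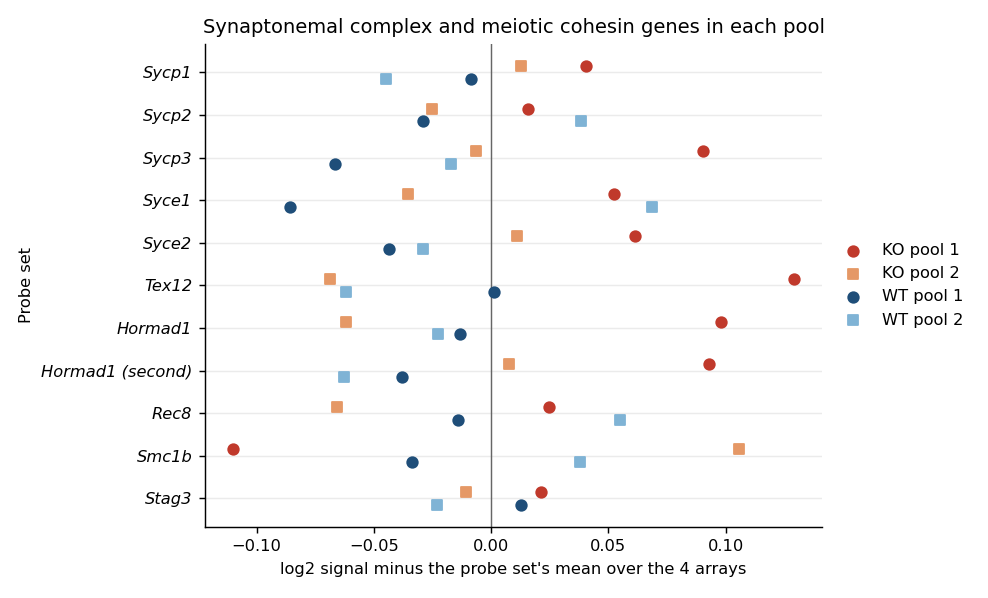
Log2 signal of each probe set minus its mean over the 4 arrays (horizontal axis), with KO pools in red and orange and WT pools in dark and light blue. Each point is 1 array; KO pool 1 is right of KO pool 2 in every row but that of Smc1b, and the KO points lie right of both WT points for Sycp1, Sycp3, Syce2 and the second Hormad1 probe set.

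In all, 7 of the 10 genes had a higher mean in KO and 3 a lower one, where 56.6% of all genes had a higher one. The pools did not overlap in 3 of the 10 (Sycp1, Sycp3 and Syce2), with KO higher in each, against 20.3% of all genes with KO higher, and in 0 of the 10 with KO lower, against 12.2% of all genes. Among the genes with a mean level in the range of the 10, these shares were 16.6% and 11.5%. The higher means rested in part on KO pool 1: without it, 4 of the 10 were above 0 and the median was -0.016, and without KO pool 2, 9 were above 0 and the median was 0.064.

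The 6 genes with the E-box in their promoter all had a higher mean in KO, from 0.011 (Stag3) to 0.084 (Sycp3), with a median of 0.057. The 4 without it ranged from -0.041 (Rec8) to 0.017 (Syce1), with a median of -0.0068. Without KO pool 1, 3 of the 6 were above 0, with a median of 0.015, and 1 of the 4, with a median of -0.028. Without WT pool 2, 5 of the 6 and 3 of the 4 were above 0, with medians of 0.033 and 0.028. Without KO pool 2, 6 of the 6 and 3 of the 4 were above 0, with medians of 0.107 and 0.0077. Without WT pool 1, 6 of the 6 were above 0, with a median of 0.062, and 0 of the 4, with a median of -0.052. This split was looked for after the differences were known and was not tested. Over all genes with a value and a promoter, the 1411 with the E-box did not show it: 55.5% of them had a higher mean in KO, against 56.6% of the 13328 without it, and the medians were 0.0097 and 0.011. The split was not particular to the E-box, whose genes overlap with those of the other letters. With the E2F6 letters, 3 of 3 genes were higher in KO, against 4 of the 7 without (medians 0.060 and 0.011). With the STRA8-MEIOSIN letters, 5 of 6 were higher, against 2 of the 4 without (medians 0.045 and 0.00057).

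The gap between the KO pools had a direction that most of the 10 genes shared. Without regard to sign, its median was 0.089, against 0.056 between the WT pools and 0.063 between the KO pools for all genes with a level in their range. KO pool 1 was above KO pool 2 in 9 of the 10, with Smc1b as the exception, by a median of 0.069, where 49.3% of all genes and 53.9% of those with a level in their range were higher in KO pool 1. Between the WT pools, 4 of the 10 were higher in WT pool 1. This gap was looked at in other lists after it was seen in the 10 genes. Of a further list of 9 synaptonemal complex, axis and related genes, 5 had a value. All 5 were higher in KO pool 1, by 0.166 on average. KO pool 2 minus KO pool 1 ran from -0.27 for 4930447C04Rik to -0.012 for Hspa2. These 5 were 4930447C04Rik (SIX6OS1 of the central element), Hormad2, Trip13, which removes HORMAD proteins from joined axes, Ccnb1ip1 and Hspa2. Of 8 genes that tie meiotic telomeres to the nuclear envelope, 6 were higher in KO pool 1, by 0.072 on average over the 8. In the other meiotic and cohesin lists, KO pool 1 was the higher for 6 of 11 regulators of meiotic genes (0.044 on average), 3 of 5 other cohesin subunits (0.0038) and 8 of 18 genes that load, release, acetylate, protect or cut cohesin (0.019).

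Among the germ cell markers, the KO pools differed in both directions. Of 8 spermatocyte markers, 3 were higher in KO pool 1 (Ccna1, Pou5f2 and Insl6) and 5 lower (Piwil1, Ldhc, Clgn, Tesmin and Tdrd5). Without regard to sign, the median gap between the KO pools was 0.080 for these 8, close to that of the 10 genes, and the mean of KO pool 1 minus KO pool 2 was -0.014. For 8 spermatid markers, 4 of 8 were higher in KO pool 1, with a mean of -0.015 and a median gap of 0.020. For 9 spermatogonia markers, 5 of 9 were higher in KO pool 1, with a mean of -0.032 and a median gap of 0.11. For Leydig cell markers the gap had the other sign, with 4 of 4 lower in KO pool 1, and the mean of the list, relative to its mean over the 4 arrays, was -0.18 in KO pool 1 and 0.12 in KO pool 2. Of 5 macrophage markers, 4 were lower in KO pool 1, and their mean on this scale was -0.32 and -0.10 in the KO pools and -0.022 and 0.44 in the WT pools. Sertoli cell markers were at -0.018 and 0.086 in the KO pools and at 0.049 and -0.12 in the WT pools on the same scale. The part of cell composition in the gap between the KO pools was not tested.

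**Figure D4:**
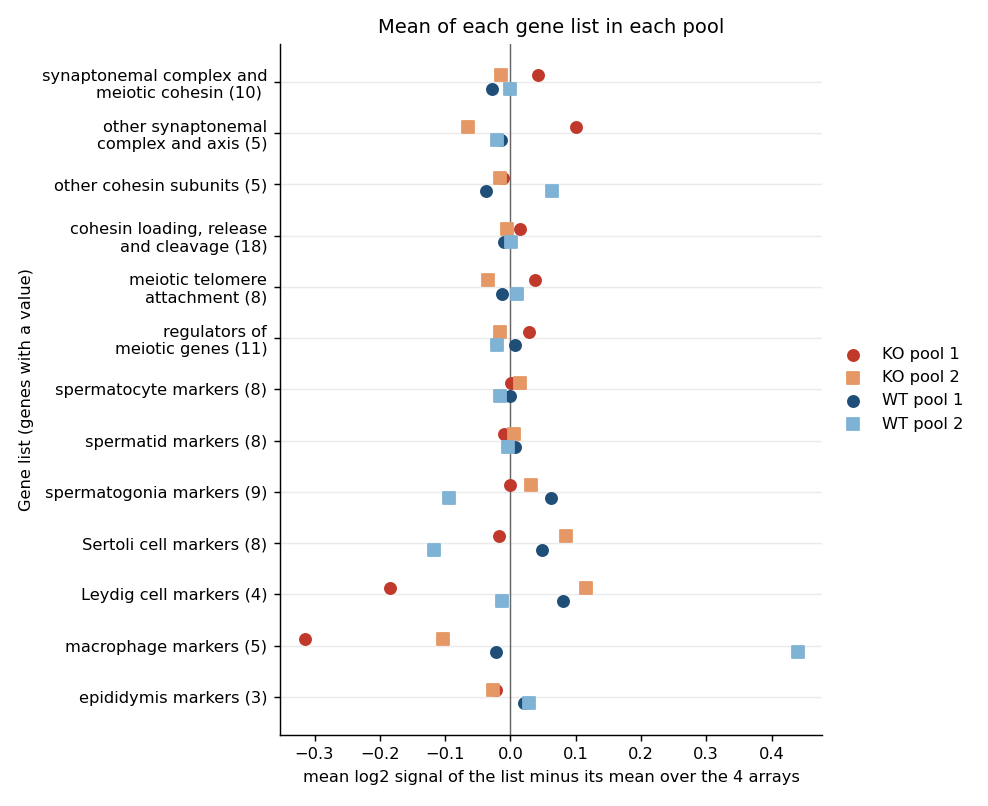
Mean log2 signal of each gene list minus its mean over the 4 arrays (horizontal axis), with the number of genes in brackets. Each point is 1 array, with KO pools in red and orange and WT pools in dark and light blue; KO pool 1 is the highest for the 10 genes and for the lists of other synaptonemal complex genes, cohesin loading, telomere attachment and regulators of meiotic genes, and the lowest for the spermatid, Leydig cell and macrophage markers.

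The cohesin subunits that other cells also use were measured beside the meiotic ones. Rad21, the mitotic kleisin and counterpart of Rec8, was at 9.80 and 9.78 in KO and 9.83 and 9.90 in WT testes, with both KO pools below both WT pools and a difference of -0.073 (SE 0.053, unadjusted p = 0.232 from limma). Stag2 had a difference of -0.089 (SE 0.066) with overlapping pools, and Stag1, Smc3 and Smc1a had differences of 0.0042, -0.0012 and 0.027. Of the 5 with a value, 0 passed an unadjusted p under 0.05. Rad21l, a further meiotic kleisin, was not analysed here.

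Genes that load, release, acetylate, protect or cut cohesin were also without a call. All 18 on the list had a value, 8 above 0 and 10 below, and 0 passed an unadjusted p under 0.05. They ranged from -0.078 for Pds5b, which binds cohesin with the release factor WAPL, to 0.10 for Hdac8, which removes acetyl groups from SMC3 and whose means of 5.06 (KO) and 4.96 (WT) lay below the median of each array. The telomere attachment genes ranged from -0.056 for Majin, a membrane anchor of meiotic telomeres, to 0.12 for the kinase gene Cdk2, with 4 of 8 above 0. The further synaptonemal complex and axis genes ranged from -0.013 for Hspa2, a chaperone of spermatocytes, to 0.10 for 4930447C04Rik, with 4 of 5 above 0. In both of these lists 0 genes passed an unadjusted p under 0.05.

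None of the 10 genes lies on chromosome 4, which carries Azin2 (128930233 to 128962456).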

How the data were processed

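Testis RNA from 2 KO and 2 WT pools was measured on 4 arrays (Affymetrix Mouse Gene 1.1 ST). The authors deposited 1 log2 value per probe set and array, made with RMA (background correction, normalization between arrays, summarization). The submitters' processing notes also name Partek 6.13.1224. The genome build and annotation version are not given in the sources used here. RMA makes the arrays alike in distribution, so a shift shared by most genes cannot be seen, and the number of arrays limits the precision.

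Names came from the annotation of the platform, with symbols updated by gene ID. The table had 35556 probe sets, 21218 with 1 symbol and 1881 with several, and the other 12457 are unnamed here. The comparison of KO with WT used limma 3.58.1 (R 4.3.3, lmFit and eBayes) over 23099 named probe sets, with Benjamini-Hochberg adjustment and no filter. The prior had 2.96 degrees of freedom. The fit was tested on simulated data. Promoters and positions are from RefSeq (GRCm38.p6). Figures were drawn with matplotlib 3.10.9.

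The genes, the further lists and the tests were chosen with earlier results of these data known. The text names all 10 genes, Azin2, the other cohesin subunits, any gene of a further list past a test, and the highest and lowest difference of each list. Other genes of these lists are examples chosen after their values were seen. The alternatives tried were an intensity trend, the robust form of eBayes with it, the ordinary equal-variance test, quantile normalization, centring, a filter on dim probe sets, every row of the table, a replicate block, the mean of a gene's probe sets and each array left out. The range of levels used to pick genes alike in level, and leaving arrays out of the E-box split, were added after seeing the data. Proteins were not compared.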

Additional observations from a re-analysis of the deposited data

How the results depend on the processing

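None of the 10 genes passed an adjusted p of 0.05 under any of 13 alternatives (0 at an unadjusted p under 0.05 too, with 0.0795, for Syce2 with an intensity trend, as the smallest). Of 130 values, 118 kept their direction and 12 turned. The intensity trend, its robust form, the ordinary test, the filter, every row and the replicate block leave each difference as it is. Values under these alternatives could not turn. Among the 12, 11 turned when 1 array was left out. Smc1b turned to 0.0053 when arrays were centred on the median. Leaving out 1 array at a time, which assumes that the lone array varies as the other genotype does, the difference ranged from 0.035 to 0.072 for Sycp1, from 0.035 to 0.13 for Sycp3 and from 0.047 to 0.097 for Syce2 (both lowest without KO replicate 1 and highest without KO replicate 2), from -0.043 to 0.024 for Sycp2, from -0.060 to 0.094 for Syce1, from -0.086 to 0.0045 for Rec8, from -0.11 to 0.10 for Smc1b, from -0.0073 to 0.028 for Stag3, from -0.044 to 0.12 for Hormad1 and from -0.039 to 0.16 for Tex12. The median of the 10 ranged from -0.016 (without KO replicate 1) to 0.064. Of the named probe sets, 1 had an adjusted p under 0.05, and this number was between 0 and 2 (0 without either WT replicate, 2 without KO replicate 2). It was 0 by the ordinary equal-variance test (1154 at an unadjusted p under 0.05) and 0 over every row of the table. By limma 946 passed an unadjusted p under 0.05 and 19 a fold of 1.5 with it. Azin2 ranged from -2.94 to -2.72, with an adjusted p of 0.294 without WT replicate 1 and 0.232 without WT replicate 2. By the ordinary test its adjusted p was 0.868 and over every row 0.0707, at -2.83 in both. Whether KO and WT pools with the same replicate number were paired is not given in the sources used here. The correlation of their deviations was -0.082, which does not settle it. A replicate block left 0 of the 10 genes and 1 named probe set past an adjusted p of 0.05, with a median of 0.027. The causes were not tested.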

Other observations

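Regulators of meiotic genes formed a further list of 13, of which 11 had a value and 0 passed an unadjusted p under 0.05 from limma. They ranged from -0.14 for E2f6, a repressor of meiotic genes in other cells, to 0.16 for Max, the partner that binds E-boxes. E2f6 was at 7.53 and 7.35 in KO and 7.64 and 7.53 in WT testes, so that its groups touched, and its interval ran from -0.35 to 0.07 (SE 0.081). Max was at 8.27 and 8.37 in KO and 8.25 and 8.06 in WT testes, with both KO pools above both WT pools (SE 0.082, unadjusted p = 0.109 from limma). Mybl1, a transcription factor of pachytene spermatocytes, and Dazl, an RNA-binding protein of germ cells, had differences of 0.015 and 0.070. The difference of Stra8, which acts at meiotic entry, was -0.032.

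Of 9 spermatogonia markers, 7 were above 0 and 0 passed an unadjusted p under 0.05 from limma, from -0.16 for the receptor gene Kit to 0.15 for Uchl1. Kit was at 8.20 and 8.81 in the KO pools and at 8.75 and 8.58 in the WT pools, and KO pool 1 was the lowest of the 4 arrays. The spermatocyte markers ranged from -0.064 (Ldhc) to 0.061 (Tesmin), and the spermatid markers from -0.053 (Prm1) to 0.066 (Acr). The Sertoli cell markers ranged from 0.011 (Clu) to 0.15 (Fshr), and the Leydig cell markers from -0.14 (Hsd3b1) to -0.025 (Cyp17a1). The epididymis markers ranged from -0.11 (Rnase10) to 0.030 (Lcn5). In these 5 lists 0 genes passed an unadjusted p under 0.05. Of 5 macrophage markers, 1 fell at a fold of 1.5 with an unadjusted p under 0.05, Vsig4 (-1.36, adjusted p = 0.9995), and Mrc1 had the highest difference, -0.074.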
